A study of Mus musculus with 4 samples.

Results

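Lowly methylated distal bins are 200-bp stretches of the mouse autosomes that were far from CpG islands (CGIs) and transcription start sites and had little DNA methylation in every library of colonic epithelium. The 95970 members were selected on their own levels. A bin had at least 2 CpGs, at least 20 and at most 1000 methylation calls in each library, and a level of at most 30% in all 4 libraries, where the level is the share of methylated calls summed over its CpGs. It also lay more than 2 kb from any CGI, here merged 500-bp windows with 25 or more CpGs, and more than 2 kb from any GENCODE M1 start. Members were 3.42% of the 2806907 distal bins that met every limit but the level (exact 95% interval 3.40 to 3.44%), and 2.82% of all 3407206 tested bins. The other 2710937 distal bins are given beside them below.

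The study measured DNA methylation by whole-genome bisulfite sequencing in colon cells sorted from the offspring of crosses between Lgr5-EGFP-CreER knock-in mice and wild-type C57 mice. Intestinal stem cells (ISCs) carried the Lgr5-EGFP reporter, and differentiated cells (Diff) lacked the reporter but stained for EpCAM, a surface protein of epithelium. The 4 groups were ISC P0 and Diff P0 at the day of birth, and ISC P21 and Diff P21 at the end of suckling, with 1 library per group made from pooled mice. Per the study, P0 samples pooled litters, while P21 samples pooled offspring positive for Lgr5-EGFP. The pools thus differed with age, which cannot be told apart from age here. Whether both cell types of an age came from the same mice is not given in the sources used here. The labels give the strain C57 for all groups and name no treatment. Expression of this knock-in reporter is known to be patchy, so that reporter-negative cells can include stem cells, and RNA of the sorted cells was not analysed here, so the sorted identity was not checked. With 1 library per group no difference was tested, and the spread between mice is unknown. A library held between 1023427645 and 1188114423 calls, and its positions off the reference CpGs, fewer than 1% in each library, were left out.

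In mammalian DNA most CpGs away from CGIs carry methyl groups. Local gaps in this cover are typical of enhancers and of sites bound by the insulator protein CTCF, where bound transcription factors and open chromatin go along with low methylation. Factors that are known for binding such sites in the gut epithelium include HNF4, HNF1, CDX, FOXA, GATA, KLF and the Wnt effectors TCF/LEF. No chromatin or binding was measured in these libraries, so members are described by their sequence and position alone.

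Sequences of single members show what such bins look like. The first set holds bins of runs described below, shown because their levels are near 0 in all libraries (Dnmbp, Dlx5) or were higher at 1 age in both cell types (Ptk7, Ablim1, Zmiz1). The Dnmbp bin was also higher at P0 (3.09% in ISC, 3.26% in Diff) than at P21 (0.635% and 0.693%). The sequences are of the plus strand of mm9, with CpGs in capitals.
Dnmbp intron, chr19:43964801-43965000: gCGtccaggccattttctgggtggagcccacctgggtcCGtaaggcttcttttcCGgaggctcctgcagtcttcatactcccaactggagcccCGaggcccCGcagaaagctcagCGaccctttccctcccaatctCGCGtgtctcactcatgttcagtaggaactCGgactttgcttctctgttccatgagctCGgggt
Near Dlx5, chr6:6824601-6824800: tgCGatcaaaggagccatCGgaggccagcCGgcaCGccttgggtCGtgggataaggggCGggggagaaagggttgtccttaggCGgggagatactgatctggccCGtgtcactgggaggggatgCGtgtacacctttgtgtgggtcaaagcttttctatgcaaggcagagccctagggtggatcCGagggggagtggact
Ptk7 intron, chr17:46756401-46756600: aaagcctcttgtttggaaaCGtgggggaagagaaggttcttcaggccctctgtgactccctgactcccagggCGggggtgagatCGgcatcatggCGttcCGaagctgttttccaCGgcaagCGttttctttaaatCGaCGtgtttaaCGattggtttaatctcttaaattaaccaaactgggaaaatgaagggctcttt
Ablim1 intron, chr19:57187401-57187600: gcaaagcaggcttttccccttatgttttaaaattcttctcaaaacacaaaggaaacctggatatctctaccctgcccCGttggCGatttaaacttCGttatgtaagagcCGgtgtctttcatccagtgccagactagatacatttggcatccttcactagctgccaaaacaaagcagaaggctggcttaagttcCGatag
Zmiz1 intron, chr14:26435601-26435800: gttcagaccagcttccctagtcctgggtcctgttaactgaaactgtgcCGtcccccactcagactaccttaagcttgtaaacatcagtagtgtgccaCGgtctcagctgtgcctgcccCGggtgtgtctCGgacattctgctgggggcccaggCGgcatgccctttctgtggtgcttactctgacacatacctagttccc

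The second set holds members with a motif that was more frequent in members than in other distal bins, with the motif in capitals. Each was the member with the most calls in its shallowest library among members with that motif near a listed gene, a choice made after the motif shares were seen. The bins that the same rule gave for FOXA, CDX and HNF1 are not printed, and from ISC P0 to ISC P21 their levels went from 10.6% to 23.4%, from 2.97% to 7.53% and from 0.818% to 1.88%, whereas the printed bins were lower in ISC P21.
CTCF core, Reg4 intron, chr3:98031201-98031400: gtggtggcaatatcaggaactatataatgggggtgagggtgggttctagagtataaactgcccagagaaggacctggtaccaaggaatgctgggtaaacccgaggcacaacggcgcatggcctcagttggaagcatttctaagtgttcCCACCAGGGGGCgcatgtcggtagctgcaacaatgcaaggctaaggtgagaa
HNF4, near Slc9a3, chr13:74239601-74239800: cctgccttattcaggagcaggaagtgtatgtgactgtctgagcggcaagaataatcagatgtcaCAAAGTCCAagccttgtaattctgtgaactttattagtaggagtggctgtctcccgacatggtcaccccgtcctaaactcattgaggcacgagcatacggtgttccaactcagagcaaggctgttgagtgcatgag
KLF, near Epcam, chr17:88016201-88016400: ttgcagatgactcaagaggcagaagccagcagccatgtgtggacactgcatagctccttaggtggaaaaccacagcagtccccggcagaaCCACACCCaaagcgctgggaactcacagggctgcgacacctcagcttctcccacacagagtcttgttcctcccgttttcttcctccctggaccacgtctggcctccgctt

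In the Reg4 bin, 5121 bp from the start of this secretory-cell lectin gene, levels were 3.03%, 7.81%, 2.70% and 1.98% in ISC P0, Diff P0, ISC P21 and Diff P21. The bin near Slc9a3, the gene of an apical sodium/hydrogen exchanger, had 8.46%, 1.99%, 0.540% and 0.345% in the same order. ISC P0 was the highest library there, and its Wilson interval of 4.79 to 14.5% lay above that of each other library, the nearest being 0.917 to 4.28% in Diff P0. The bin near Epcam, which encodes the protein used for the sort, had 20.4%, 18.5%, 13.3% and 9.04%, with overlapping intervals in ISC P0 and ISC P21. Its last CpG, at base 196, was the most methylated, with 61.9% in ISC P0, 64.7% in Diff P0, 36 of 90 calls in ISC P21 and 43.1% in Diff P21. Wilson and exact intervals cover counting error only, not the spread between mice. Wilson intervals take each call as separate, although 1 read can give calls at several CpGs, so they can be too narrow. Undetected PCR copies of 1 molecule would add to this.

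Members had low levels in each library, as the rule required, with medians somewhat lower at P21 than at P0. The completeness of bisulfite conversion in each library was not assessed here, and it can shift such low levels. The median level was 7.62% in ISC P0 (quartiles 2.11 and 15.8%), 8.48% in Diff P0 (2.74 and 16.5%), 5.20% in ISC P21 (1.04 and 13.6%) and 4.92% in Diff P21 (0.952 and 12.9%). The other distal bins had medians of 86.8%, 86.5%, 87.0% and 86.4%, and the rule itself set this difference in level. A median member had 70, 110, 74 and 94 calls in these libraries, against 61, 92, 64 and 77 in the other distal bins. No methylated call was found in 15059 members in ISC P0, 9597 in Diff P0, 20083 in ISC P21 and 18449 in Diff P21. Diff P0 also had the most calls per member, and the part of depth in these counts was not tested.

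**Figure D1:**
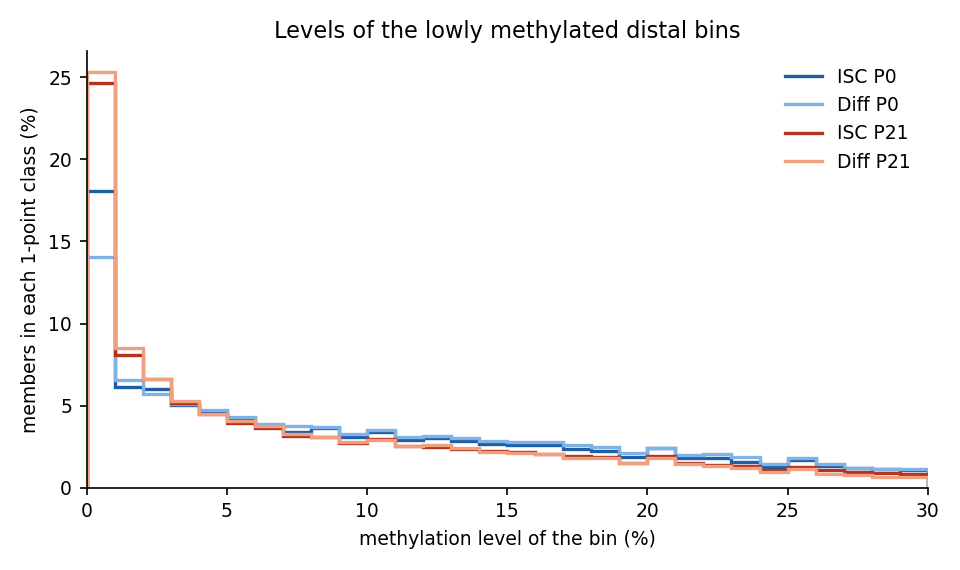
Share of the 95970 members (y axis, percent) in each 1-point class of methylation level (x axis, percent) in the 4 libraries, drawn as 1 line per library. The class from 0 to 1% held 18.1% of members in ISC P0, 14.1% in Diff P0, 24.6% in ISC P21 and 25.3% in Diff P21, and all lines fall towards 30%, the limit of the rule.

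The median distance between the highest and the lowest library of a member was 7.89 points, which the rule limits to 30. The highest of the 4 levels was at most 5% in 23121 members (24.1%), at most 10% in 39545 (41.2%) and at most 20% in 67348 (70.2%). No methylated call in any library was found in 2247 members (2.34%), which had 87 to 1662 summed calls (median 219). The limit itself cut through a continuum. The 6213 members with a highest level above 28% had medians of 23.7%, 24.3%, 21.2% and 19.8%, and the 6214 bins just outside, at up to 32%, had 25.5%, 26.5%, 23.3% and 22.1%, with the same median GC content of 49.0%.

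As a description of the selected bins, more members were lower at P21 than at P0 than the reverse in both cell types, and the difference between cell types was smaller. In ISCs, 51244 members (53.4%) were lower and 36592 (38.1%) higher at P21, with a median difference of -0.58 points, which was -0.22 points for members at or below 20%, -0.19 where the upper Wilson limit was at most 30% and 0.0 at or below 10%. In differentiated cells, 58502 members (61.0%) were lower and 31910 (33.2%) higher, with a median of -1.39 points, which was -1.06 points at or below 20% and with the Wilson limit and -0.57 at or below 10%. Over all tested bins the median differences with age were 0.0 points in ISCs and -0.09 in differentiated cells. Between cell types, the median of Diff minus ISC was 0.32 points at P0, with 50200 members higher and 40529 lower in Diff, and 0.0 points at P21, with 40899 higher and 44450 lower. Over all tested bins these medians were -0.16 and -0.36 points. Since the same levels chose the members and bounded them at 30%, nothing is read from the contrasts with all tested bins, with age or between cell types. Diff P0 alone was the highest library in 32259 members, and Diff P21 alone the lowest in 23545, close to ISC P21 alone in 22940. Shares of all tested bins that were higher, lower, highest or lowest were not computed, so nothing is read from these counts.

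Differences above 15 points were counted in each direction, without a test. Since the same levels chose the members and none could exceed 30%, nothing is read from the counts against the shares in all tested bins. From P0 to P21 in ISCs, 2031 members (2.12%) were higher and 5220 (5.44%) lower, where 5.39% and 6.12% of all tested bins were. In differentiated cells, 1050 (1.09%) were higher and 5992 (6.24%) lower, beside 3.8% and 5.71% of all tested bins. For Diff minus ISC at P0, 1966 (2.05%) were higher and 1226 (1.28%) lower, beside 4.07% and 3.85%. For Diff minus ISC at P21, 730 (0.761%) were higher and 1188 (1.24%) lower, beside 3.04% and 3.9%. The counts depend on the limits set. With 40 calls or more in each library, 69201 members remained. Of these, 1178 were higher and 3420 lower with age in ISCs, and 504 and 3829 in differentiated cells. For Diff minus ISC the counts were then 943 and 516 at P0 and 287 and 470 at P21. Shares of all tested bins at 40 calls were not computed, so nothing is read from these counts.

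Of 194235 distal bins at or below 30% in at least 1 library, members made up 49.4%. The next largest set was low in both P21 libraries and in neither P0 library, with 19879 bins (10.2%) and medians of 45.7%, 45.6%, 17.8% and 18.3%. The reverse set, low at P0 in both cell types only, held 6949 bins (3.58%). Many bins were low in 1 library alone, with 10194 in ISC P0, 6754 in Diff P0, 10801 in ISC P21 and 10794 in Diff P21. Bins low in both ISC libraries only (2253) or both Diff libraries only (2613) were fewer than either age set. Members were 71.5% of the low distal bins of ISC P0, 73.9% of those of Diff P0, 64.4% of those of ISC P21 and 63.0% of those of Diff P21.

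For the gut factors named above and for CTCF, AP-1, ETS, NRF1 and CRE, 12 short motifs, chosen with earlier results of these data known, were searched on both strands of each bin, and 43524 members (45.4%) held at least 1 of these 12, against 31.3% of other distal bins of the same length. The core of the CTCF consensus, searched as a degenerate string, stood furthest apart, with 4.45% of members (exact interval 4.32 to 4.58%) against 1.01%. HNF4 (CAAAGTCCA), the motif of nuclear receptors of enterocytes, was found in 0.804% of members (0.749 to 0.863%) against 0.243%. KLF (CCACACCC) followed with 3.99% against 1.51%, HNF1 (GTTAATNAT) with 1.02% against 0.395% and FOXA (TGTTTAC) with 5.67% against 2.63%. These shares describe letters in a window and show no binding.

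The remaining motifs had smaller ratios. CDX (TTTATNG), of the factors that set intestinal identity, was in 14.2% of members and 9.17% of other bins, the widest gap in percentage points of all motifs. With 6 or more CpGs it was in 10.7% against 8.99%. Bins low in some libraries held CDX about as often as members. Their shares ran from 12.2% (low in both P21 libraries only) to 15.6% (low in ISC P0 alone). AP-1 (TGANTCA) was in 8.34% against 5.99%, ETS (CCGGAAG) in 1.74% against 1.22% and AGATAA, the motif of GATA factors, in 11.9% against 9.89%. TCF/LEF (ATCAAAG), the motif of Wnt signalling, was in 3.70% against 3.32%, and CRE (TGACGTCA) in 0.329% against 0.240%. NRF1 (GCATGCGC), a motif with CpGs that is typical of CGI promoters, was rarer in members, at 0.377% against 0.545%, but not at 55% GC or more, where it was in 0.664% of members and 0.645% of other bins. Matches of different motifs shared a base in 378 members (0.394%).

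**Figure D2:**
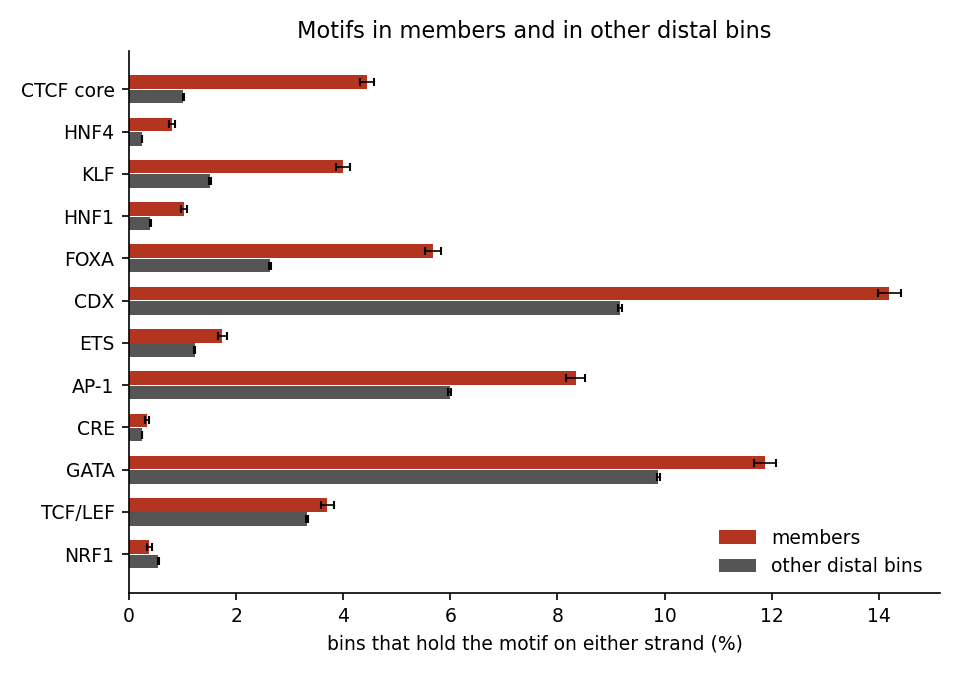
Share of bins with each motif (x axis, percent) in members and in other distal bins, ordered by the ratio of both (y axis), with exact 95% intervals as error bars. The CTCF core is 4.40 times and HNF4 3.31 times as frequent in members, while TCF/LEF is 1.12 times and NRF1 0.693 times as frequent.

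The CTCF core and HNF4 were more frequent in members in each class of CpG number, though the order of the ratios changed. Among bins with 2 or 3 CpGs the CTCF core was in 3.81% of members and 0.941% of other bins, and among bins with 6 or more in 6.21% and 1.24%. HNF4 was in 0.956% and 0.257% of bins with 2 or 3 CpGs, and in 0.440% and 0.190% of those with 6 or more, where the ratio for HNF1, 2.64, was above that for HNF4, 2.32. CRE changed sides, with 0.224% of members against 0.154% at 2 or 3 CpGs but 0.580% against 0.734% at 6 or more.

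Levels differed with the motif. Members with the CTCF core had the lowest medians at P0, 3.92% in ISC P0 and 4.35% in Diff P0, and moved little by P21, to 3.29% and 2.90%. Members with the HNF4 motif started at 6.06% and 6.44% and had the lowest medians at P21, 1.73% in ISC P21 and 1.69% in Diff P21. Members with none of the motifs had 8.20%, 9.09%, 5.77% and 5.45%. The median change with age was 0.0 points in ISCs for CTCF members and -2.35 points for HNF4 members, and -0.38 and -2.77 points in differentiated cells. HNF1 members, with 5.34% and 5.69% at P0, changed by -0.69 points in ISCs and -1.23 in differentiated cells. Members with none of the motifs changed by -0.61 and -1.44 points. The rule used and bounded all these levels, so they are a description and no difference between motifs was tested.

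The HNF4 motif also went along with age outside the members. It was found in 1.05% of bins low at P21 in both cell types only (exact interval 0.910 to 1.198%) and in 0.216% of bins low at P0 only (0.121 to 0.356%). The CTCF core was in 1.298% (1.14 to 1.47%) and 1.15% (0.914 to 1.43%) of these sets, whose intervals overlap, and in 4.45% of members. Other gut motifs did not all follow HNF4. FOXA was in 4.085% of bins low at P21 only and 5.92% of those low at P0 only, and CDX in 12.2% and 13.7%. KLF (3.07% and 3.195%) and HNF1 (0.543% and 0.619%) were also slightly rarer in the P21 set. GATA was in 11.7% and 10.3%, and TCF/LEF in 4.055% and 3.97%. Since these sets were defined by the levels, the shares are a description.

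Levels were summed in 20-bp steps on both sides of the motif, read in its own direction, in the 4270 members with the CTCF core and the 772 with HNF4. Around the CTCF core the level was lowest at the motif, near 3.88%, 3.98%, 3.57% and 3.25% as a mean of 3 steps, and then went up and down in waves. Away from the motif, low points lay 310, 490, 670 and 850 bp before it in each library. Only 49.3% of members had no adjacent member, so bins near the motif can be members too. The rule therefore still bears on part of these levels, mostly those nearest the motif. In ISC P0 they had levels of 39.7%, 57.6%, 66.2% and 70.3%, with peaks of 58.6%, 70.1%, 72.8% and 75.05% between them. The steps between neighbouring low points were 180 bp before the motif in all libraries, and 160 to 200 bp after it. The waves nearly coincided in the 4 libraries. At 310 bp before the motif the levels were 39.7%, 40.01%, 39.5% and 38.2%. Nucleosomes are known to be regularly spaced beside bound CTCF, but their positions were not measured here.

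**Figure D3:**
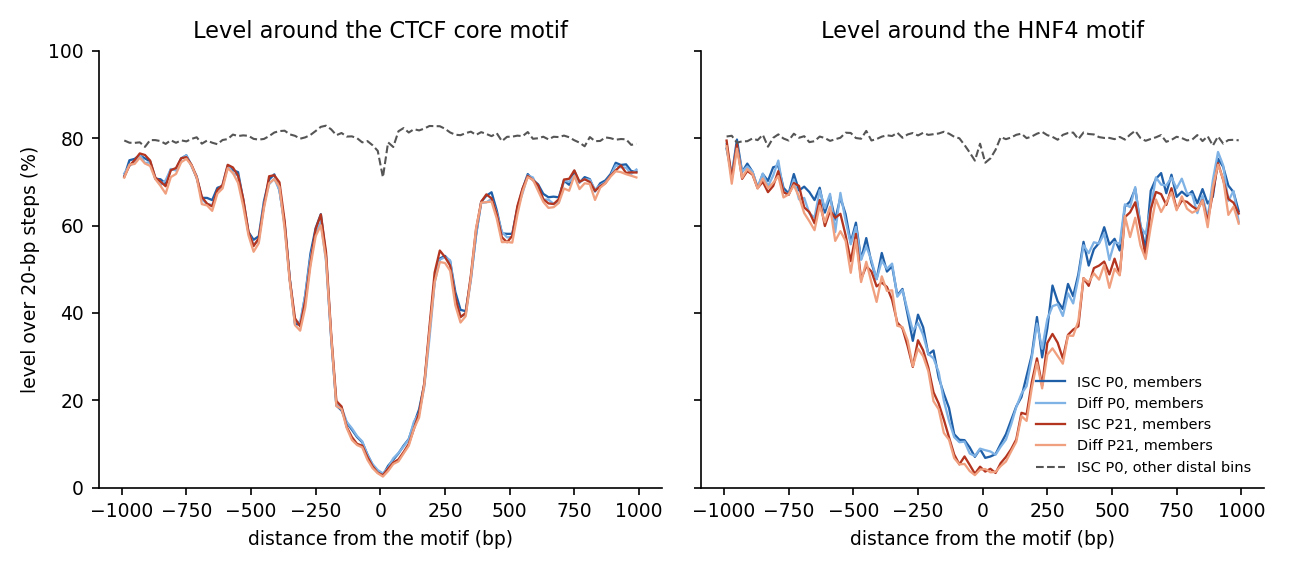
Level over 20-bp steps (y axis, percent) against distance from the motif (x axis, bp) around the CTCF core (left) and HNF4 (right), with 1 solid line per library for members and a dashed line for ISC P0 in other distal bins with the motif. Low points 160 to 200 bp apart flank the CTCF core in all 4 libraries, while the HNF4 profile is a single valley, in which both P21 lines run below both P0 lines near the motif but not throughout.

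The 27395 other distal bins with the CTCF core showed much smaller waves, with 82.9% in ISC P0 at 210 bp before the motif, 79.9% at 310 bp and 81.7% at 370 bp. Around HNF4 in members a single broad valley was seen. It was 12.3%, 11.6%, 7.63% and 6.80% at 110 bp before the motif and 45.5%, 45.3%, 36.5% and 36.8% at 310 bp before it, so that the P21 libraries were lower on the shoulders too. Adjacent bins can be members here as well, so these levels are a description. Further out the order varied between steps, with 74.2%, 73.5%, 72.5% and 73.0% at 910 bp before the motif and 69.2%, 65.7%, 66.1% and 62.4% at 950 bp after it.

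Adjacent members formed 66378 runs, of which 47297 (71.2%) were single bins, 12695 had 2 bins and the longest had 14. A run also ended where the next bin was not tested, and a tested bin directly before the run was found for 26901 runs only, so run size is no measure of how far low methylation reached. Beyond a run's edge the mean level was 52.0%, 52.4%, 48.8% and 48.2% in the first bin before it and 72.4%, 72.3%, 71.8% and 71.3% at 1000 bp. Both P21 libraries were below both P0 libraries in the bin next to the run, which is no member by construction, and less so at 1000 bp. Longer runs were lower. Single bins had medians of 10.7%, 11.6%, 8.0% and 7.48%, and members of runs of 5 or more bins 2.50%, 2.86%, 1.92% and 1.79%. The CTCF core was in 5.28% of single members and 2.47% of members of runs of 5 or more, and CDX in 16.1% and 10.4%. Between these classes mean CpGs went from 3.46 to 4.90 and median GC from 48.5% to 51.5%, and their part was not tested.

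**Figure D4:**
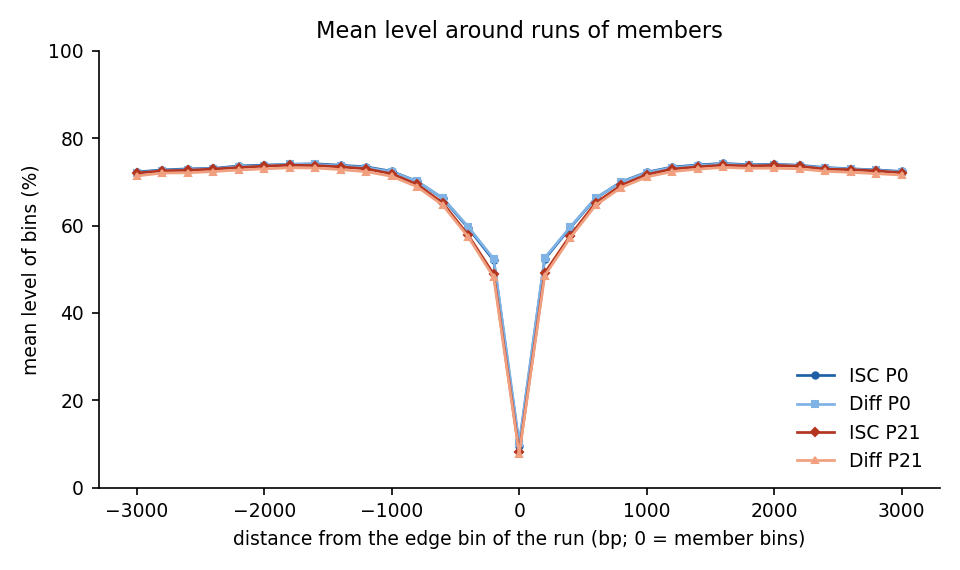
Mean level of tested bins (y axis, percent) against distance from the edge bin of a run (x axis, bp), with the members themselves at 0, as 1 line per library. Levels pass from 52.0, 52.4, 48.8 and 48.2% in the neighbouring bin to 74.1, 74.0, 73.7 and 73.2% at 1600 bp before the run.

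Named runs were the 8 with the most bins, and those with the largest difference in each comparison among 16002 runs of 2 or more bins with 100 or more calls per library. The longest run, chr5:148033001-148035800, had 83 CpGs and lay 32728 bp from the start of Gsx1, a homeobox gene. Its levels of 2.37%, 1.76%, 2.15% and 2.59% had overlapping intervals. The run chr6:6823401-6825800, 6267 bp from the limb and craniofacial homeobox gene Dlx5, had 1.70%, 1.54%, 2.49% and 2.79%, with tested bins at 1 to 3 kb on either side also near 2.80%, 1.39%, 2.73% and 3.65%. Its intervals of the ages overlapped in ISCs but not in Diff, with 1.14 to 2.07% at P0 and 2.17 to 3.58% at P21.

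The run chr19:43962601-43965200 in an intron of Dnmbp, which encodes a cell-junction scaffold, had 13 bins and 1.44%, 3.50%, 0.354% and 0.361%, and Diff P0 was above all others. It was higher at P0 in both cell types, and the intervals of the ages did not overlap in either. The run chr5:135441401-135443800 near Cldn3 and Cldn4, the genes of tight-junction claudins, had 3.85%, 4.05%, 4.65% and 3.52%, with overlapping intervals, between flanks of 52.5 to 70.5%. The run chr17:46754001-46756600 in an intron of Ptk7, a receptor of planar polarity and Wnt signalling, went the other way with age. It had 5.40% and 5.47% at P0 and 11.3% and 13.4% at P21, with intervals of 4.26 to 6.82% in ISC P0 and 9.73 to 13.2% in ISC P21. The centre 32-mer of 1 of its bins occurs 8 times in the genome.

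The runs chr14:76233201-76235400 near Tpt1 and chr12:77647201-77649400 in Plekhg3 were lower at P21 in ISCs, from 4.15% to 1.39% and from 2.89% to 1.22%, the latter with overlapping intervals. The interval of 3.13 to 5.49% in ISC P0 at the Tpt1 run lay above those of all other libraries. The run chr11:81425401-81427800 in Accn1, an ion channel gene of neurons, had 6.06%, 4.52%, 6.03% and 4.75% with overlapping intervals.

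**Figure D5:**
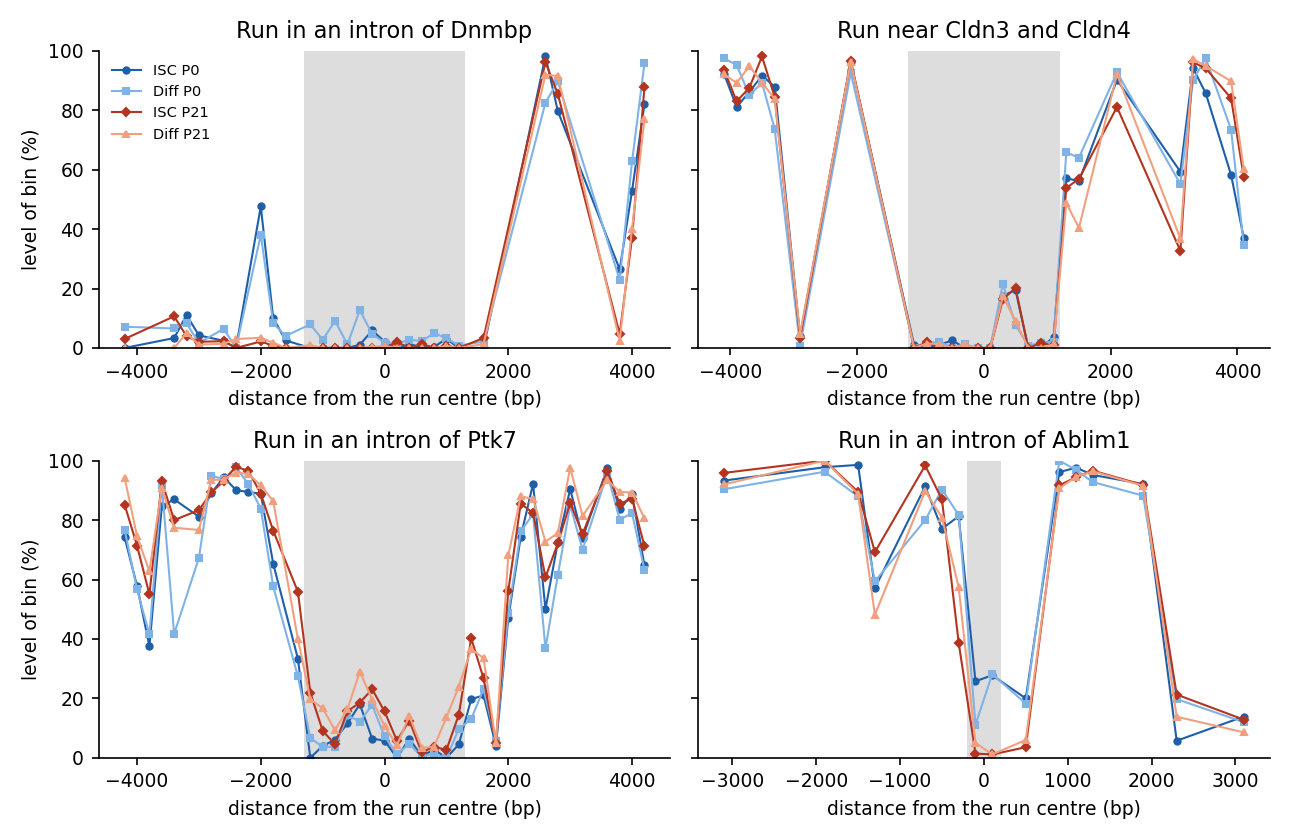
Level of each tested bin (y axis, percent) against distance from the run's centre (x axis, bp) for 4 named runs, with 1 line per library and the run in grey. The Dnmbp and Cldn3/Cldn4 runs stay low in each library, the Ptk7 run is higher at P21 and the Ablim1 run is higher at P0.

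The largest differences with age were of the same sign in both cell types. The run chr19:57187201-57187600 in an intron of Ablim1, the gene of an actin-binding LIM protein, had 27.1% and 20.9% at P0 and 1.26% and 3.23% at P21. All 5 CpGs of the printed bin were lower at P21 in both cell types. The fourth, at base 110 of the bin, had 46.9% of 64 calls in Diff P0 and 2.63% of 38 in Diff P21. The run chr1:59952201-59952600, 17249 bp from Fam117b, had 16.7% and 28.5% at P0, 2.42% in ISC P21 and 0 of 139 calls in Diff P21, which allows a level of up to 2.16% when taken as 3 calls of the total and 2.69% by the Wilson limit.

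Rises were seen at chr14:26435601-26436000 in an intron of Zmiz1, a coregulator of transcription, with 2.90% and 4.29% at P0 and 20.7% and 24.4% at P21. The run chr7:29756001-29756600, which overlaps an exon of the translation factor gene Eif3k, had 3.17% and 8.49% at P0 and 26.6% and 20.6% at P21. In each of these runs the intervals of the ages did not overlap in either cell type. They were chosen for their differences, which are a description.

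Runs chosen for a difference between cell types mostly had 1 library apart from the other 3. At chr14:52516201-52516600 in the zinc transporter gene Slc39a2, Diff P0 had 24.7%, ISC P0 0.990%, Diff P21 3.31% and ISC P21 0 of 123 calls, which allows up to 2.44% as 3 calls and 3.03% by the Wilson limit. At chr6:31040601-31041000, 127432 bp from AB041803, ISC P0 had 24.7% and the others 5.58%, 4.0% and 2.16%. At chr1:13108801-13109200 in the germ-cell regulator gene Prdm14, Diff P21 had 3.0% and the others 14.5%, 23.5% and 23.2%. At chr19:55560401-55560800 in Vti1a, a gene of vesicle fusion, ISC P21 had 0 of 102 calls, which allows up to 2.94% as 3 calls and 3.63% by the Wilson limit, and the others 14.9%, 22.9% and 20.4%.

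Members lay in introns, exons and outside genes in shares near those of other distal bins, with fewer in exons. Introns of protein-coding genes held 37490 members (39.1%, exact interval 38.8 to 39.4%) against 39.6% of other bins. Exons held 3677 (3.83%) against 6.62%, and 52316 members (54.5%) lay outside all genes against 51.8%. The median distance to the nearest start was 19.04 kb against 25.3 kb, and the share of distal bins that were members went from 4.20% at 2 to 5 kb to 0.667% beyond 500 kb. Among chromosomes it ranged from 2.94% on chromosome 16 to 4.32% on chromosome 11.

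Members were richer in CpGs and GC than other distal bins, with 3.86 against 3.39 CpGs on average and a median GC of 49.5% against 47.0%. The share of members went from 2.67% of bins with 2 CpGs to 7.06% of those with 10, and from 0.915% of bins under 35% GC to 9.97% of those at 60% or more. GC also moved with depth, since median calls in Diff P0 went from 50 to 199 over the same GC classes, and the part of depth was not tested. The 32 bases at the bin's centre occurred more than once in the genome for 1.957% of members and 10.3% of other bins, and no member held a 32-mer of the mitochondrial genome.

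Members were counted in each listed gene and within 50 kb of its starts, which describes their position and is no check of the sorted cell types. Genes of intestinal transcription factors had a median of 17 members, genes of epithelial structure 15.5 and genes of stem cells and Wnt signalling 16, against 4.0 for all 21418 protein-coding genes, of which 81.5% had any. Colonocyte transport genes had 8.0 and secretory genes 11, but secretory genes only 3.0 within 20 kb, level with mesenchyme and liver genes and below nerve genes with 3.5. Among other tissues, mesenchyme and vessel genes had 8.0, blood genes 5.5, liver genes 5.0 and nerve genes 4.5. As a share of eligible bins, which takes account of gene length, the medians were 8.95%, 10.4%, 5.59%, 5.66% and 5.46% for the gut lists in this order, 5.21% for mesenchyme and vessel, 3.92% for blood, 3.94% for liver, 2.64% for nerve and 2.89% for all genes. At least 1 member was found for all found genes of every list, except for 1 of 15 transport and 1 of 18 blood genes, so that presence alone does not tell the lists apart. Windows of neighbouring genes overlap, as for Krt8 and Krt18, and no difference between lists was tested.

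Among intestinal transcription factors, Hnf4a had 39 members (13.0% of eligible bins), Elf3 34 (22.8%) and Ehf 33 (18.6%). Members around Elf3, the gene of an epithelial ETS factor, had summed levels of 9.54% and 10.4% at P0 and 2.41% and 1.67% at P21. Around Hnf4a they had 9.29%, 9.57%, 5.08% and 5.05%. Around Ehf they had 8.12%, 9.32%, 4.89% and 4.80%, so that both P21 libraries were below both P0 libraries at these 3 genes. They were named for their many members. Other genes of the list were below the median share of all genes, 2.89%: Gata6 with 2 members (1.65%), Hnf4g with 2 (2.02%) and Klf4 with 4 (2.55%).

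Among epithelial structure genes, the adherens-junction gene Cdh1 had 56 members (22.0%), the keratin genes Krt8 and Krt18 44 and 43 (22.6% and 23.9%) and Cldn3 29 (17.7%). Levels at Cdh1 were 7.55%, 7.11%, 5.39% and 4.21%, and at Krt8 5.97%, 5.54%, 2.82% and 2.36%, lower in both P21 libraries. Among stem cell and Wnt genes, the receptor gene Ephb2 had 70 members (9.45%), the Wnt inhibitors Rnf43 39 (17.3%) and Znrf3 22 (8.94%), and Lrig1, a marker of stem cells, 32 (9.82%). Members at Lrig1 had 6.05% and 8.84% at P0 and 2.26% and 1.76% at P21. At Ephb2 they had 7.73%, 10.6%, 6.26% and 6.39%. The genes in this paragraph so far were named for their many members. Lgr5, the gene of the sort reporter, had 21 (5.69%). Shares below the median of all genes, 2.89%, were found for Cd44 (1.63%), Slc12a2 (1.81%), Myc (2.24%) and Lef1 (2.70%). Among structure genes this held for Prom1 (2.26%) and Tjp1 (2.79%).

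Among genes of differentiated cells, the carbonic anhydrase gene Car4 had 18 (11.7%), with 4.93%, 6.28%, 7.59% and 7.39%, higher at P21 in both cell types. The adhesion gene Ceacam1 had 15 (14.9%), with 9.32%, 15.3%, 3.83% and 2.79%. Reg4 had 27 (14.4%), with 7.37%, 7.88%, 3.52% and 3.50%. Around Spdef, the gene of a goblet-cell factor, 19 members (7.09%) had 10.4%, 8.85%, 9.75% and 9.79%. Scnn1a had 15 (8.33%), with 8.38%, 11.6%, 10.8% and 8.49%, higher at P21 in ISCs and lower in Diff. Pou2f3 had 19 (5.59%), with 12.3%, 12.25%, 7.47% and 7.26%. Dclk1 had 16 (2.61%), with 15.2%, 15.5%, 10.6% and 15.1%. Not every gene that the rule named for these lists is described.

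Single genes of other tissues had many members too. Rbfox3, which encodes a neuronal splicing factor, had the most of all listed genes, 121 of 1327 eligible bins (9.12%), with 9.25%, 9.52%, 9.73% and 8.79%. The blood factor gene Runx1 had 35 (4.92%), and Coro1a, an actin-binding gene of leukocytes, 17 (11.4%), with 9.45% and 8.82% at P0 and 2.24% and 3.07% at P21. The liver enzyme gene Tat had 27 (11.4%), with 7.13%, 8.86%, 1.46% and 1.79%. In the lists of other tissues, the named genes not described here had between 8 and 22 members. A window can hold the regulatory sites of neighbouring genes, and how far it did was not tested.

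Joining members at most 12.5 kb apart gave 32439 clusters, of which 14254 were single members, 227 had 20 or more and 6 had 50 or more. The largest, chr11:112899201-113060200, had 81 members in 43 runs over 161 kb without a protein-coding gene, 253158 bp from the start of Sox9, a factor of crypt cells. Its levels were 7.92%, 9.03%, 6.09% and 6.11%. The second, chr17:84353801-84444200, held 65 members and no protein-coding gene, with 8.49%, 10.6%, 5.16% and 5.39%.

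The third spanned the cadherin genes Cdh3 and Cdh1 (chr8:109072401-109170800, 58 members, 27.8% of eligible bins), with 7.67%, 7.07%, 5.51% and 4.42%. Clusters at Plekha6, Kcnk5 and Phlda1 had 53, 53 and 52 members and were lower at P21 in both cell types. The Dnmbp cluster (chr19:43949601-43996200) was the densest of the 8, with 47 members making up 39.5% of eligible bins. The cluster near Gpx5 (chr13:21307401-21379600, 49 members), the gene of an epididymal peroxidase, was the only one of the 8 that was higher at P21, with 3.05% and 3.16% at P0 and 6.52% and 5.86% at P21.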

How the data were processed

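Genomic DNA of sorted colonic cells was ligated to adaptors, bisulfite-converted, amplified and sequenced as paired ends. Per the labels, reads were mapped to mm9 with Bismark and Bowtie. Neither versions nor any removal of duplicate reads were stated (not given in the sources used here), and undetected duplicates would make counting intervals too narrow. The files deposited by the authors give, at each CpG cytosine, a total count of calls and the methylated count. The deposited fraction is the ratio of both and was not used.

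Calls on both strands of a reference CpG were summed, and levels of 200-bp bins were computed from summed counts with Python 3.11.15, numpy 2.4.6, pandas 2.3.3 and numba 0.67.0. CGIs (29687 on autosomes) and starts of 95495 GENCODE M1 transcripts set distance, and exons and introns are of protein-coding genes. A bin was placed by any exon overlap, then by its centre. Wilson intervals were given for levels and exact Clopper-Pearson intervals (scipy 1.17.1) for shares of bins. The Wilson intervals take calls of 1 read at several CpGs as separate, so they can be too narrow, and their overlap is a description. The functions were tested on simulated data.

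The members, the motifs, the gene lists and the rules for naming were chosen with earlier results of these data known. The text names the 8 runs with the most members, the run with the largest difference in each direction of each comparison, the 8 largest clusters, and up to 4 genes per list with the most members in the gene or within 50 kb of a start (3 listed genes, Gfi1, Spi1 and Map2, were not found by symbol on the autosomes). The values of 1 gene that this rule names are not reported here. For sequences, the bin with the most CpGs of a named run was taken. With 1 library per group, no test was made. The limits of 10 and 40 calls, 20% and 10% levels, an upper Wilson limit, 4 CpGs, 5 kb, no upper limit on calls, shifted bins, sequence-based CGIs and chromosome X were tried as alternatives.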

Additional observations from a re-analysis of the deposited data

Results flagged for a closer look

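Chromosome X was outside the rule and is reported only here. The same limits on CpGs, calls, level and distance were met by 631 bins of chromosome X, 0.898% of its 70286 eligible bins (exact interval 0.829 to 0.970%), where the lowest share on an autosome was 2.94%. Their median levels were 15.2%, 16.9%, 16.1% and 13.7% in ISC P0, Diff P0, ISC P21 and Diff P21, and the other eligible bins of the chromosome had 85.4%, 85.0%, 85.3% and 84.8%. The sexes pooled in each library are not given in the labels, and the difference from the autosomes was not tested.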

How the results depend on the processing

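Counts of members and runs moved by over 1.5 times under 2 of the settings tried, to 39545 bins in 28242 runs at a level of at most 10% and to 45105 in 34139 with 4 CpGs or more. The median level of members in ISC P0 was 7.50% with 10 calls, 4.17% at 20%, 1.75% at 10%, 4.0% with the upper Wilson limit at 30% or less, 6.96% with 4 CpGs, 7.75% at 5 kb and 7.45% with sequence-based CGIs (55% GC, ratio 0.65). The intron share was 38.3% with 40 calls, 38.5% at 10%, 36.5% with 4 CpGs, 37.9% at 5 kb and 38.6% with sequence-based CGIs. Median GC was 49.0% with 10 calls and at 5 kb, 50% with 40 calls, at 10% and with the Wilson limit, and 51.0% with 4 CpGs. The CTCF core share was 4.62% with 40 calls, 5.24% at 20%, 6.29% at 10%, 5.27% with the Wilson limit and 5.17% with 4 CpGs. The median age difference in ISCs was -0.22 points at 20%, -0.19 with the Wilson limit and 0.0 at 10%, where that in differentiated cells was -0.57 points. By over 10 instead of 15 points, 3661 members were higher and 13454 lower with age in differentiated cells, and 5879 and 11950 in ISCs. With 40 calls, 504 of 69201 members were higher and 3829 lower by over 15 points in differentiated cells. Shares of all tested bins at these limits were not computed. The mean flank level at 1000 bp was 72.0% from summed calls. Within 20 kb the median members were 8.5 for intestinal factor genes, 9.5 for epithelial structure, 8.0 for stem cells and Wnt, 5.0 for transport, 3.0 for secretory, mesenchyme and liver genes, 3.5 for nerve, 1.0 for blood and 1.0 for all genes, so the secretory list no longer stood above those of mesenchyme, liver and nerve. Members were 53.6% of bins low in any library with 40 calls. No upper limit on calls, shifted bins, chromosome X and, added after seeing the data, leaving out bins with a repeated centre 32-mer left the shares and medians within their counting intervals and the counts within 1.5 times. The reference is not soft-masked, so the alternative on repeats could not be run as planned. No paired analysis was run. At 20 calls the counting error of a level is wide, so single bins at the depth limit are uncertain.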
